A study of Homo sapiens with 33 samples.

Results

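Untreated SCC6 was compared with untreated SCC25 across all genes, in the 12 libraries that the labels give as PBS for these cell lines out of the 33 libraries of the series. Both are established head and neck squamous cell carcinoma (HNSCC) lines, and each side of the comparison is 1 line. Each line gave 6 libraries of polyadenylated RNA, 1 on each day from day 0 to day 5 after the start of treatment, and received only PBS, the vehicle control for cetuximab. Per the labels, SCC25 was grown in DMEM with serum and hydrocortisone and seeded at fewer cells per plate, and SCC6, named UM-SCC-6 there, was grown in high-glucose DMEM with serum and nonessential amino acids. The study's methods name another medium and the same seeding number for all lines. The 6 SCC25 libraries share 1 flow cell, while those of SCC6 come from other flow cells, one for days 0 and 1 and another for days 2 to 5. Line, medium, seeding and flow cell therefore cannot be told apart in these 12 libraries. No label says that the days of a line are separate cultures, so the p-values measure the spread over 6 consecutive days of each line.

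Squamous carcinomas arise from stratified epithelium, whose basal cells carry the keratin pair KRT5 and KRT14 and the transcription factor p63, and whose upper layers switch to other keratins and to the proteins of the cornified envelope. Simple epithelia carry KRT8, KRT18 and KRT19 instead, with tight junctions built from claudins and occludin. Carcinoma lines differ in how much of either program they keep, and in how far they express mesenchymal genes such as VIM, CDH2 and the collagens, a state studied as epithelial to mesenchymal transition (EMT). Growth in these tumours often depends on EGFR, the receptor that cetuximab blocks.

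Estimated counts per library ranged from 42018632 to 52144493 in SCC25 and from 28508758 to 40302162 in SCC6. Expression levels are in CPM, a count divided by its library total after TMM scaling, and fold changes as log2 of SCC6 over SCC25 with a standard error (SE). Principal component 1 held 85.8% of the variance and separated the lines, while component 2 held 5.55% and set SCC6 on days 0 and 1 apart from SCC6 on days 2 to 5, which is also where the flow cell changes. Correlations of log2 CPM across genes, which are not independent replicates, ranged from 0.967 to 0.991 within SCC6, from 0.986 to 0.995 within SCC25 and from 0.843 to 0.860 between lines. Mitochondrial genes took 6.01 to 7.29% of the counts in SCC6 and 6.17 to 7.12% in SCC25.

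**Figure D1:**
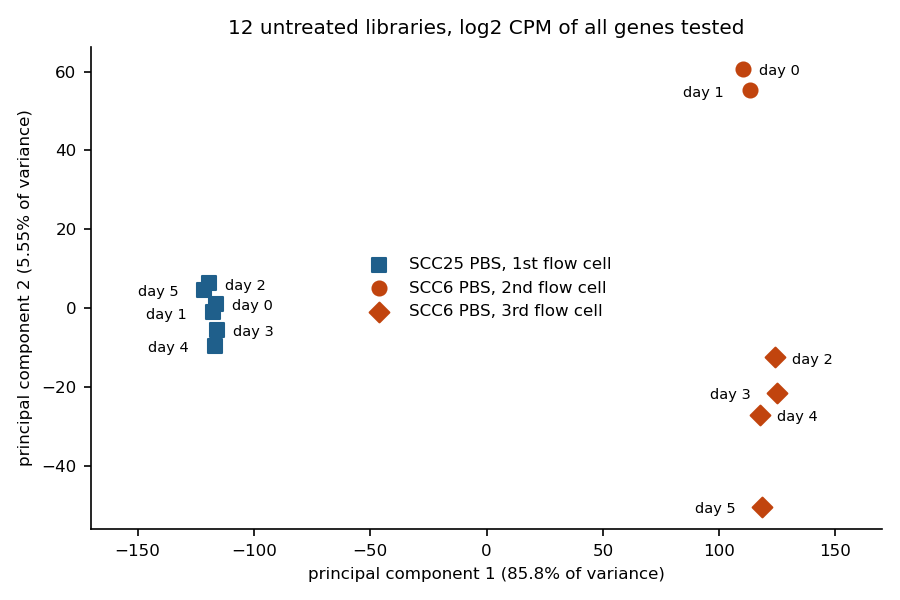
Principal components 1 (x axis) and 2 (y axis) of log2 CPM over all genes tested, with 1 point per library, coloured by line, shaped by flow cell and labelled by day. The 6 SCC25 libraries lie together, and the SCC6 libraries of days 0 and 1 lie apart from those of days 2 to 5 on component 2.

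Of 18615 genes tested with edgeR's quasi-likelihood test, 13422 were called at an adjusted p under 0.05. SCC6 was higher at 6744 of them (36.2% of the genes tested) and lower at 6678 (35.9%). The counts of list members further on are to be read beside these shares. Calls of at least 2-fold numbered 2691 higher (14.5%) and 3771 lower (20.3%), and calls of at least 16-fold 304 higher and 818 lower. At 10061 genes (54%) the 6 values of one line did not overlap those of the other, so a lack of overlap is common here and says little about a single gene. The median log2 fold change over all genes tested was 0.0054, and the median absolute log2 fold change was 0.68. When a trend of counts with GC content was removed from the 15629 genes with a GC value, the calls of at least 2-fold were split 2891 higher to 2577 lower, against 2223 to 3091 for the same genes without it, so the balance of directions depends on that choice.

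Of 3 keratins of the basal layer, 2 were lower in SCC6 and 1 was not called. KRT5 (12:52908359-52914314 on GRCh37) had 1.71 to 5.45 CPM (median 2.31) in SCC6 and 4269.6 to 6163 CPM (median 4867) in SCC25, a log2 fold change of -10.76 ± 0.31 (adjusted p = 1.15e-12). Its partner KRT14 had 1.79 to 12.4 CPM (median 4.1) in SCC6 and 2656 to 4083 CPM (median 3073) in SCC25, at -9.20 ± 0.46. In both genes every SCC25 library lay far above every SCC6 library, and the SCC6 level was highest on day 0. In bulk RNA, fewer cells of a type and less RNA per cell cannot be told apart.

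The simple-epithelial keratins went the other way. KRT8 had 2737 to 6929 CPM (median 5339) in SCC6 against 387 to 619.8 CPM (median 584) in SCC25 (3.19 ± 0.20), and its partner KRT18 had 1782 to 3151 CPM (median 2705) against 395 to 511 CPM (median 457) (2.52 ± 0.13). KRT19 was higher too (3.32 ± 0.25, adjusted p = 2.14e-08), and none of these 3 overlapped between lines. KRT7, also a simple keratin, was lower in SCC6 at -3.50 ± 0.17. KRT80 (3.85 ± 0.16) and the hair keratin KRT81 (7.48 ± 0.21) were higher in SCC6, the latter uncertain because KRT81 and KRT86 are near-identical and can share reads. Over the list, 21 of 32 keratins were tested, of which 7 were higher, 9 lower and 5 not called, with a median of -0.39. The shares over all genes were 36.2% higher and 35.9% lower. Among the wound-associated keratins KRT6A was lower in SCC6 (-3.22 ± 0.59), while KRT6B (0.40 ± 0.54, adjusted p = 0.523) and KRT17 (-0.48 ± 0.30, adjusted p = 0.164) were not called, and their day courses are given further on. KRT13, the keratin of the non-cornified oral mucosa, was lower at -2.90 ± 0.65, with overlapping values.

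**Figure D2:**
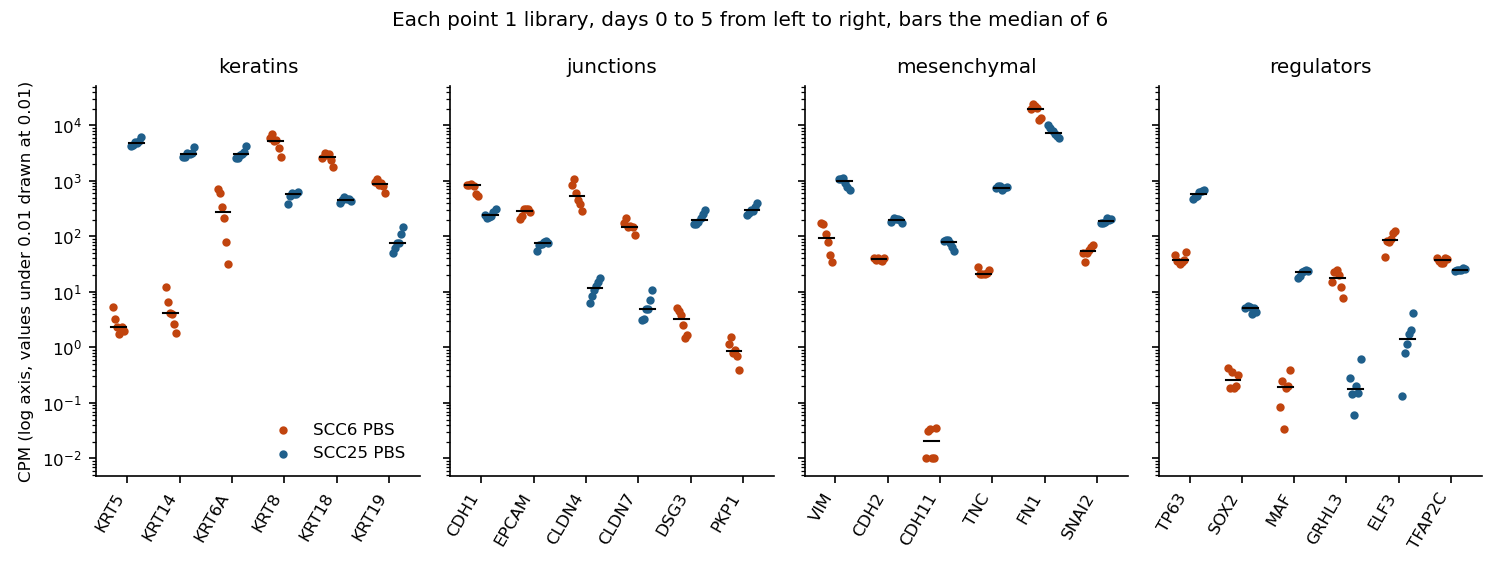
CPM (log axis, values under 0.01 drawn at 0.01) of 24 genes in 4 groups, with 1 point per library in order of day, SCC6 left of SCC25 for each gene, and a bar at the median of 6. Basal keratins, DSG3, PKP1, VIM, CDH11, TNC, TP63 and MAF sit lower in SCC6, and KRT8, KRT18, KRT19, the claudins, GRHL3, ELF3 and FN1 sit higher.

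Genes of epithelial adhesion were mostly higher in SCC6. Of 41 listed, 40 were tested, 27 were higher, 7 lower and 6 not called (median 0.92). The tight junction part held 10 higher and 2 not called of 12. CLDN4, a sealing claudin, had 289 to 1074 CPM (median 531) in SCC6 and 6.3 to 18.1 CPM (median 11.6) in SCC25 (5.69 ± 0.38), and CLDN7 (4.79 ± 0.31), OCLN (5.70 ± 0.20) and the junction plaque protein CGN (4.68 ± 0.33) were higher too. None of these 4 overlapped between lines. CDH1, the adherens junction cadherin of epithelia, had 538 to 873 CPM (median 834) in SCC6 and 218 to 306 CPM (median 240.4) in SCC25 (1.58 ± 0.13, adjusted p = 9.29e-08). EPCAM was higher at 1.92 ± 0.12, as were RAB25 (3.77 ± 0.13), MAL2 (2.14 ± 0.18) and NECTIN4 (3.98 ± 0.25), whereas NECTIN1 was lower (-1.83 ± 0.35).

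Desmosomes, which anchor keratin filaments at cell contacts, did not follow the tight junctions. Of 12 desmosomal genes 11 were tested, 4 being higher, 5 lower and 2 not called, against 36.2% and 35.9% over all genes. The desmoglein DSG3, typical of the lower layers of stratified epithelium, had 1.45 to 5.19 CPM (median 3.19) in SCC6 and 164 to 304 CPM (median 197) in SCC25 (-6.06 ± 0.32). The plakophilin PKP1 had 0.387 to 1.56 CPM (median 0.848) against 241 to 405 CPM (median 298) (-8.38 ± 0.25). Both were low in every SCC6 library, and the desmocollin DSC3 was also lower (-2.57 ± 0.11). PKP2 was higher (1.25 ± 0.09), and DSP, which links desmosomes to keratin, was not called (0.26 ± 0.16, adjusted p = 0.163).

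Mesenchymal genes were lower in SCC6 almost throughout. Of 29 listed, 27 were tested and 24 were lower, with a median of -1.88. FN1 and SNAI1 were higher, and TWIST1 was not called (-0.07 ± 0.17). VIM, the intermediate filament of mesenchymal cells, had 35 to 175 CPM (median 94) in SCC6 and 672 to 1127 CPM (median 989) in SCC25 (-3.20 ± 0.37, adjusted p = 2.18e-06). With flow cell as a covariate over all 33 libraries the VIM difference was -1.71 and no longer passed (adjusted p = 0.070). In that fit, here and further on, libraries of 1 group on different flow cells also differ in day. No day term was fitted, so flow cell and day cannot be told apart in its values. N-cadherin, CDH2, was lower at -2.34 ± 0.07 with a narrow spread in both lines. CDH11, the cadherin of osteoblasts and fibroblasts, summed to 3 counts over the 6 SCC6 libraries against a median of 78.4 CPM in SCC25, a ratio of 4787 (95% counting interval 1638 to 23211) for SCC25 over SCC6. TNC, a matrix glycoprotein of tumour stroma, had 21 to 28.2 CPM (median 21.4) in SCC6 and 676 to 805 CPM (median 759) in SCC25 (-5.03 ± 0.10), and the muscle tropomyosin TPM2 (-4.61 ± 0.18), the collagen crosslinker LOX (-3.51 ± 0.18) and THBS1 (-1.74 ± 0.23, and -0.94 with the covariate, adjusted p = 0.0711) were lower as well.

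Among the EMT transcription factors, SNAI2 was lower (-1.80 ± 0.14) and TWIST2 had 1 count in all of SCC6 against a median of 8.91 CPM in SCC25. SNAI1 had 2.9 to 4.55 CPM (median 3.06) in SCC6 and 0.303 to 1.31 CPM (median 1.02) in SCC25 (1.83 ± 0.26), and its value was 0.96 (adjusted p = 0.283) with flow cell as a covariate. FN1, fibronectin, was high in both lines, with 12582 to 24541 CPM (median 19915) in SCC6 and 5896 to 10267 CPM (median 7423) in SCC25 (1.28 ± 0.18). The lines did not overlap at FN1, and its direction was opposite to that of the collagens.

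Of 18 collagen genes 17 were lower in SCC6 (median -4.18) and COL18A1 was not called (-0.69 ± 0.40). The collagen VI chain COL6A2 had 0 to 0.0704 CPM (median 0.0446) in SCC6 and 107 to 131 CPM (median 123) in SCC25 (-11.40 ± 0.18). COL1A2 had a median of 0.274 CPM in SCC6 and 57.5 in SCC25 (-7.85 ± 0.22), and COL1A1 was lower at -3.88 ± 0.24. Values for the basement membrane chains COL4A5 and COL4A6 are given with their neighbours on chromosome X. Fibrillin 1, FBN1, was lower too (-3.63 ± 0.22).

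Since such genes also mark fibroblasts, the fibroblast markers were summed as a list. All 10 were tested and lower in SCC6, their summed level ranging from 3.73 to 8.52 CPM in SCC6 and from 172.9 to 221.6 CPM in SCC25, and 8 of the 10 stayed under 1 CPM in every SCC6 library. LUM (-9.38 ± 0.44) and FAP (-6.51 ± 0.20) belong to them. Endothelial markers summed to at most 3.00 CPM in either line. Leukocyte markers summed to 16.3 to 32.2 CPM in SCC6 and 157.2 to 223.4 CPM in SCC25, nearly all of it CD68 (-3.28 ± 0.17), a lysosomal protein that is not restricted to macrophages, and 5 of 7 were under 1 CPM throughout SCC25. Melanocyte markers summed to 25.2 to 50.9 and 8.16 to 12.02 CPM, nearly all of it MITF (2.06 ± 0.19, and 0.26 with flow cell as a covariate, adjusted p = 0.466). The 9 squamous markers summed to 2528 to 4909 CPM in SCC6 and 10758 to 14753 CPM in SCC25, with 2 higher (CDH1 and EPCAM) and 5 lower. KRT5 and KRT14, whose values are given above, carried much of the SCC25 sum. Whether other cells took part in any of these differences was not tested.

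Of 21 integrins and laminins 7 were higher, 9 lower and 5 not called, near the shares over all genes (36.2% and 35.9%). ITGA2, a collagen receptor subunit, was higher in SCC6 (2.13 ± 0.18), while the fibronectin receptor subunit ITGA5 (-4.44 ± 0.23) and ITGB6 (-2.43 ± 0.15) were lower. LAMA1 had 0.458 to 0.671 CPM (median 0.532) in SCC6 and 115 to 149 CPM (median 132) in SCC25 (-7.92 ± 0.11). LAMB2 (3:49158547-49170551 on GRCh37) was the reverse, with 51.8 to 92.7 CPM (median 60.7) in SCC6 and 2 counts in all of SCC25, a ratio of 10242 (95% counting interval 2835 to 84575). LAMB3, a laminin chain of the epithelial basement membrane, was higher in SCC6 (1.13 ± 0.21).

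Of 13 matrix proteases 4 were higher and 7 lower, against 36.2% and 35.9% over all genes. The collagenase MMP1 had 287 to 4809 CPM (median 1536) in SCC6 and 49.2 to 107 CPM (median 70.4) in SCC25 (4.59 ± 0.58), and MMP10 was higher at 6.44 ± 0.90. Both were highest in SCC6 on day 0. The urokinase receptor PLAUR was higher (3.30 ± 0.23), the protease inhibitor SERPINE2 lower (-2.92 ± 0.24), MMP28 lower (-4.13 ± 0.29) and TIMP3 higher (0.66 ± 0.08). With flow cell as a covariate MMP1 was at 3.44 (adjusted p = 0.0526), SERPINE2 at -1.22 (adjusted p = 0.0775) and TIMP3 at -0.028.

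Of 26 squamous transcription factors tested 11 were higher and 12 lower, against 36.2% and 35.9% over all genes. With flow cell as a covariate 9 were higher and 4 lower. TP63, the master regulator of stratified epithelium, had 31.9 to 52.2 CPM (median 37) in SCC6 and 481 to 692 CPM (median 585) in SCC25 (-3.87 ± 0.14). SOX2 was lower at -4.12 ± 0.20 and low in both lines. TFAP2A, one of the regulators the study follows, had 41.5 to 55.1 CPM (median 47.9) in SCC6 and 53.6 to 59.8 CPM (median 56.8) in SCC25, with overlapping values and a log2 fold change of -0.24 ± 0.07 (adjusted p = 0.00943) that was 0.00047 once the GC trend was removed. TFAP2C was higher (0.56 ± 0.08).

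Factors of the GRHL, KLF and ETS families, which act in differentiating epithelium, were higher at 6 of 7. GRHL3 had 7.85 to 24.3 CPM (median 17.6) in SCC6 and 0.0613 to 0.616 CPM (median 0.177) in SCC25 (6.10 ± 0.43), and ELF3 had 42.9 to 125 CPM (median 86.4) against 0.132 to 4.16 CPM (median 1.44) (5.74 ± 0.53). GRHL1 (3.08 ± 0.17) and EHF (1.70 ± 0.12) were higher as well, EHF losing its call with flow cell as a covariate (0.54, adjusted p = 0.223). Among 15 oral and epidermal factors 4 were higher and 8 lower. PRDM1 was higher (3.08 ± 0.20), PAX9, a factor of oral epithelium, was lower (-2.29 ± 0.18), and MAF had 0.0334 to 0.387 CPM (median 0.195) in SCC6 and 17.5 to 24.7 CPM (median 23.2) in SCC25 (-6.85 ± 0.27).

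Late differentiation genes went both ways by role. Of 15 cornified envelope proteins 8 were tested, 7 being higher and 1 lower, and 7 were too low to test. SPRR3 had 1.59 to 11.9 CPM (median 7.35) in SCC6 and no count in SCC25, which is at least 699.9-fold higher, taking 3 counts over the 6 SCC25 libraries as the floor. SPRR1B was higher (5.01 ± 0.41), as were the S100 protein S100A9 (2.69 ± 0.22) and the kallikrein protease KLK6 (6.22 ± 0.18). S100A9 was at 0.91 (adjusted p = 0.204) with flow cell as a covariate, where the whole cornification list held 5 higher and 5 lower calls against 12 and 9 without it. CALML3, a calmodulin-like protein of stratified epithelium, had 0.0279 to 0.134 CPM (median 0.0567) in SCC6 and 26.7 to 43.8 CPM (median 34.8) in SCC25 (-8.97 ± 0.23). Of 17 genes of crosslinking and desquamation, 12 were tested, with 2 higher and 7 lower.

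HOX genes, which record position along the body axis, differed by cluster. Of 39 genes 34 were tested, 27 were lower in SCC6 and 5 higher, including HOXA2 (1.33 ± 0.37), HOXA3 (1.71 ± 0.24), HOXA4 (1.84 ± 0.19) and HOXA10 (1.04 ± 0.07). HOXA2 was at 0.011 (adjusted p = 0.975) in days 0 and 1 alone and at 0.81 (adjusted p = 0.383) with flow cell as a covariate, so its call was lost in both. All 9 HOXB, 8 HOXC and 6 HOXD genes tested were lower. HOXB3 had no count in SCC6 and 10.9 to 15 CPM (median 12.1) in SCC25, at least 798-fold lower, and HOXD9, also without a count in SCC6, had 10.5 to 13.5 CPM (median 12.7) in SCC25, at least 788-fold lower. HOXD10 had 0 to 0.141 CPM (median 0.044) in SCC6 and 42.3 to 46.7 CPM (median 44.4) in SCC25 (-9.65 ± 0.26), HOXD13 was at least 236-fold lower and HOXC10 was lower at -4.35 ± 0.12. The HOXD median was -9.27 as fitted and -8.38 with genes at 0 set to their bound.

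EGFR itself was not called. It had 835 to 989 CPM (median 917) in SCC6 and 877 to 1007 CPM (median 971) in SCC25, a log2 fold change of -0.07 ± 0.06 (adjusted p = 0.303), with overlapping values. ERBB2 was slightly higher in SCC6 (0.43 ± 0.15, adjusted p = 0.0208) and ERBB3 higher at 1.28 ± 0.11. The ERBB2 call was lost without scaling (0.27, adjusted p = 0.108), without the low-count filter (0.30, adjusted p = 0.105), in days 1 to 5 (0.30, adjusted p = 0.0736) and in days 2 to 5 (0.099, adjusted p = 0.187). Among the ligands, EREG, epiregulin, had 460.5 to 951 CPM (median 710.2) in SCC6 and 13.8 to 22.6 CPM (median 17.4) in SCC25 (5.22 ± 0.20), and AREG (2.54 ± 0.13) and HBEGF (2.70 ± 0.16) were higher too, without overlap. NRG1, the ligand of ERBB3 and ERBB4, had 11.8 to 20.5 CPM (median 14) in SCC6 and 121 to 152 CPM (median 136) in SCC25 (-3.18 ± 0.15). Of 9 ligands tested 5 were higher and 3 lower.

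Of 19 genes of ERK output and feedback 8 were higher and 8 lower, against 36.2% and 35.9% over all genes. The ERK phosphatase DUSP4 had 204 to 251 CPM (median 225) in SCC6 and 11 to 15.6 CPM (median 12.4) in SCC25 (4.16 ± 0.09), and DUSP5 was higher (1.94 ± 0.17, and 1.07 with flow cell as a covariate, adjusted p = 0.0554). LRIG1, a negative regulator of ERBB receptors, was lower (-4.79 ± 0.16), and so was CCND1 (-1.19 ± 0.06). MYC was not called (0.24 ± 0.15).

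Other receptor tyrosine kinases were lower more often than higher, at 16 against 6 of 26 tested. FGFR1 (-2.53 ± 0.17) and FGFR2 (-2.94 ± 0.08) were lower, and IGF1R lay slightly lower (-0.25 ± 0.08, adjusted p = 0.0115). AXL, which had 189.9 to 285 CPM (median 200.2) in SCC6 and 145 to 211 CPM (median 189) in SCC25, was not called (0.27 ± 0.12, adjusted p = 0.0594). Of 7 TGF-beta family receptors 3 were lower, including ACVR1 (-1.07 ± 0.06), and TGFBR3 was not called (-0.03 ± 0.10).

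Interferon-stimulated genes were lower in SCC6. Interferon receptors signal to a promoter element called ISRE, and induce antiviral proteins and the machinery that loads peptides on MHC class I. Of 35 interferon-stimulated genes, 28 were lower, 3 higher and 4 not called (median -2.50). Promoters of 4 of these genes are shown because they hold its core letters and include genes of both directions. They are the 250 bases before the RefSeq start on GRCh38.p14, read on the gene's own strand, for BST2 (chr19:17405631-17405880), IFI27 (chr14:94110486-94110735), IFIT3 (chr10:89327747-89327996) and SAMD9 (chr7:93117980-93118229), of which BST2 and SAMD9 are on the minus strand. Capitals mark matches to the core of the ISRE, which is GAAA, any 2 bases and GAAA again, on either strand, and the matches overlap in BST2.
BST2: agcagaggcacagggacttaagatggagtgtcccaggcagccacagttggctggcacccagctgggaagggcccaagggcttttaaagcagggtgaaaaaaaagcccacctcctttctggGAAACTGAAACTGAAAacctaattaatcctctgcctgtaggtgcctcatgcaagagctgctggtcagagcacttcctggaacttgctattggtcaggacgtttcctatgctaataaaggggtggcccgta
IFI27: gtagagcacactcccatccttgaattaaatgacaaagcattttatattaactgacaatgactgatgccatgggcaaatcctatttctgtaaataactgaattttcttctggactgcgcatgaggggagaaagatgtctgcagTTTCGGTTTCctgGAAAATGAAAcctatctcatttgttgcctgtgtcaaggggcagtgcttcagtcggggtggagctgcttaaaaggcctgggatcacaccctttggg
IFIT3: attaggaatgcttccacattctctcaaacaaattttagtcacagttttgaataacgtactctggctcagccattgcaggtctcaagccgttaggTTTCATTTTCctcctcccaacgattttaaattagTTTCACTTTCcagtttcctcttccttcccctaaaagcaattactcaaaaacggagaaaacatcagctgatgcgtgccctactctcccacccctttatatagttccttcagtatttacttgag
SAMD9: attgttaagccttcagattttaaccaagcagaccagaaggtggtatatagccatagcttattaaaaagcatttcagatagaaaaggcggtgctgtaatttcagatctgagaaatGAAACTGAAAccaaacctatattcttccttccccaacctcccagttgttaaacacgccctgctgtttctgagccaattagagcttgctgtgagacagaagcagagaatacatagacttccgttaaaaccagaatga

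The first matched base lies 130 and 124 bases before the start in BST2, 108 and 95 in IFI27, 156 and 122 in IFIT3, and 136 in SAMD9. BST2, tetherin, which holds budding virus at the membrane, had 0 to 0.204 CPM (median 0.0707) in SCC6 and 77.4 to 114 CPM (median 83.8) in SCC25 (-10.10 ± 0.30). IFI27 had 0 to 0.704 CPM (median 0.242) against 83.6 to 259.7 CPM (median 118) (-8.79 ± 0.49). IFIT3, which binds foreign RNA with its partners, had 2.93 to 12 CPM (median 7.35) against 28 to 159 CPM (median 54.1) (-3.25 ± 0.45). SAMD9, an antiviral factor, was higher in SCC6, with 77.3 to 217 CPM (median 161) against 48.1 to 119 CPM (median 62.4) and some overlap (1.06 ± 0.26). With flow cell as a covariate its value was -2.01 and it was called in the opposite direction (adjusted p = 0.00785).

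The motif was present in 839 of 27305 RefSeq promoters (3.07%). It was found in 15 of the 27 interferon-stimulated genes with a promoter there, of which 13 were lower and 1 higher in SCC6. Of the 12 without it, 10 were lower, so most were lower with or without these letters in the window.

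OAS2, a sensor of double-stranded RNA, had 0.14 to 1.45 CPM (median 0.312) in SCC6 and 68.6 to 168 CPM (median 76.8) in SCC25 (-7.43 ± 0.46), and IFI6 was lower (-4.79 ± 0.62). MX1 and MX2, dynamin-like antiviral proteins, were the other two that were higher, at 2.49 ± 0.36 and 0.81 ± 0.18. Both sit on chromosome 21 between genes whose counts were near absent from SCC25, as described further on, and with flow cell as a covariate MX1 was at 0.035 and MX2 at -1.93. With that covariate 47 genes of the interferon and MHC list were called lower, against 45 without it. That fit joins the flow cells of SCC25 and SCC6 through cetuximab-treated SCC25 and then untreated SCC1, another line of the series. The early days of cetuximab-treated SCC25 share the flow cell of untreated SCC25. Its later days share that of the earlier days of untreated SCC1. The last day of SCC1 is on another flow cell than its earlier days. On a common scaling MX1 ranged from 37.3 to 282 CPM (median 50.6) in untreated SCC1. For SAMD9, MX1, MX2 and the list, flow cell, day and time under the drug therefore cannot be told apart.

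All 14 genes of MHC class I and its peptide processing were lower (median -2.10). HLA-B had 9.02 to 13.1 CPM (median 11.5) in SCC6 and 288 to 399 CPM (median 323) in SCC25 (-4.87 ± 0.12), HLA-C was at -4.31 ± 0.11 and HLA-F at -3.42 ± 0.15. These genes are near-identical and polymorphic, so their split of reads is uncertain. The invariant chain B2M had 291 to 599 CPM (median 473) in SCC6 and 755 to 969 CPM (median 823) in SCC25 (-0.87 ± 0.16), a smaller difference than that of the heavy chains. The immunoproteasome subunit PSMB9 (-5.70 ± 0.46) and the class I regulator NLRC5 (-2.22 ± 0.16) were lower. Motif matches were found in 5 of the 11 class I genes with a promoter there, and all 11 were lower.

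Of 26 secreted factors tested 10 were higher, 13 lower and 3 not called, against 36.2% and 35.9% over all genes. LIF, a cytokine of the interleukin 6 family, had 291 to 454 CPM (median 315) in SCC6 and 1.1 to 4.33 CPM (median 3.34) in SCC25 (6.88 ± 0.31). Its relative IL11 (3.47 ± 0.12) and the neutrophil chemokine CXCL8, with 242 to 465 CPM (median 359.6) against 1.7 to 14 CPM (median 5.89) (5.72 ± 0.50), were higher too, CXCL8 losing its call with flow cell as a covariate (2.09, adjusted p = 0.125). CXCL14, a chemokine of normal epithelium, had 0 to 0.0558 CPM (median 0.0294) in SCC6 and 12.5 to 28.3 CPM (median 13.5) in SCC25 (-9.15 ± 0.40), and was at -9.36 with the covariate (adjusted p = 0.0734). VEGFC (-2.87 ± 0.13) and CSF1 (-2.39 ± 0.13) were lower, and VEGFA was not called (-0.15 ± 0.14).

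Because hydrocortisone is named in the medium of SCC25 alone, genes that glucocorticoids induce were listed. Of 20 tested 7 were higher in SCC6, 9 lower and 4 not called, near the shares over all genes (36.2% and 35.9%). TSC22D3, also called GILZ, had 1 count in all of SCC6 and 61.7 to 88.3 CPM (median 80.6) in SCC25, a ratio of 15227 (95% counting interval 2733 to 601448) for SCC25 over SCC6. FKBP5 had 31.5 to 42.4 CPM (median 37.4) in SCC6 and 151 to 197 CPM (median 170.2) in SCC25 (-2.22 ± 0.09), and KLF9 was lower at -2.49 ± 0.24. DUSP1 (2.63 ± 0.18) and LCN2 (5.96 ± 0.27) of the same list were higher, but DUSP1 was at 0.49 (adjusted p = 0.66) with flow cell as a covariate. The receptor gene NR3C1 was higher at 0.46 ± 0.10 with overlapping values, and at -0.091 with that covariate. TSC22D3 lies in a stretch of chromosome X where most other coding genes tested were also near absent from SCC6, though some kept counts, as described further on. The part of the medium in these values cannot be told apart from the line.

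Metabolic and growth genes were listed too. Of 24 genes of ATF4 and amino acid metabolism 11 were higher and 7 lower, with ATF4 itself at 1.24 ± 0.08, the stress factor ATF3 at 2.77 ± 0.23, the asparagine synthetase ASNS at 1.04 ± 0.32 and the transporter SLC1A4 at -1.98 ± 0.19. With flow cell as a covariate ATF3 was at 0.35 (adjusted p = 0.573) and ASNS at -0.069. NRF2 targets were lower at 16 and higher at 3 of 29. CBR1 (-2.57 ± 0.16) and the glutathione peroxidase GPX2 (-2.06 ± 0.17) were lower, and the thioredoxin reductase TXNRD1 was higher (1.19 ± 0.22), though at 0.30 (adjusted p = 0.632) with the covariate, where 2 NRF2 targets were higher and 9 lower. Of 48 cell cycle genes 31 were higher and 10 lower (median 0.42), most by less than 2-fold. MKI67, a marker of cycling cells, had 397 to 577 CPM (median 473) in SCC6 and 274 to 370.1 CPM (median 312) in SCC25 (0.59 ± 0.10), its call being lost in days 0 and 1 alone (0.28, adjusted p = 0.0547), and RRM2 (1.29 ± 0.11), TPX2 (1.20 ± 0.10) and AURKA (1.37 ± 0.11) were higher. Of 18 G1 regulators 8 were higher and 8 lower, against 36.2% and 35.9% over all genes. CCNE1 was at 2.26 ± 0.15, CDKN2D at 1.71 ± 0.15 and CCND2 at -7.82 ± 0.20.

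A gene was counted as detected in 1 line alone when it had at least 5 CPM in all 6 libraries of that line and at most 3 counts over the 6 libraries of the other. There were 6 such genes in SCC6 and 36 in SCC25, the floor of 3 counts being 0.010 CPM in SCC25 and 0.016 CPM in SCC6. Those of SCC6 were LAMB2, RIPK4, ZBTB21, LDOC1, C3orf14 and MAGEA12. RIPK4 (21:43159529-43187249 on GRCh37), a kinase of keratinocyte differentiation, had 30.8 to 58.4 CPM (median 32.3) in SCC6 and no count in SCC25, at least 3815-fold higher. ZBTB21 was at least 3152-fold higher, LDOC1 at least 1077-fold and C3orf14 at least 927-fold. The cancer-testis antigen MAGEA12, at least 631-fold higher, has near-identical relatives that can share its reads. Of 33 cancer-testis genes listed, 3 had enough counts to test. Those of SCC25 included COL4A5, TSC22D3, CDH11, COL4A6, CDKN2B, MID2, HOXB3, HOXD9, RNF128 and TWIST2.

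By size of the fitted difference, other genes stood with these. FAT1 (4:187508948-187647876 on GRCh37), a giant cadherin often mutated in HNSCC, had 279 to 611 CPM (median 446) in SCC6 and 0.0378 to 0.0906 CPM (median 0.0725) in SCC25 (12.64 ± 0.29). PLCXD3 (10.64 ± 0.32), C15orf48 (8.49 ± 0.41), ADGRL2 (8.13 ± 0.20), TRHDE (7.79 ± 0.28), SEMA3D (7.62 ± 0.16) and PNMAL1 (7.48 ± 0.18) completed the 10 largest differences toward SCC6 with RIPK4, ZBTB21 and LAMB2. Toward SCC25, TENM2, a teneurin of neurons, had 0 to 0.112 CPM (median 0.0474) in SCC6 and 446 to 520.1 CPM (median 475) in SCC25 (-13.23 ± 0.22). UGT1A10 (-11.40 ± 0.37), which shares exons with the other UGT1A genes, and the transcription factor EBF3 (-11.18 ± 0.21) were also among the 10 largest, beside TSC22D3, COL4A5, COL4A6, CDH11, CDKN2B, COL6A2 and KRT5.

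Several of these genes are neighbours. On chromosome X, from MUM1L1 (start 105412298) to COL4A5 (end 107940775, GRCh37), all 15 coding genes tested over 2.53 Mb were lower in SCC6, and 12 of them averaged under 0.1 CPM there. COL4A5 had 3 counts in SCC6 and 78.7 to 100.2 CPM (median 82.5) in SCC25 (ratio 5495 (95% counting interval 1880.2 to 26644) for SCC25 over SCC6), COL4A6 had 1 count against 33.7 to 39 CPM (median 36), and MID2 and RNF128 had none, at least 947-fold and 627-fold lower. The housekeeping proteasome gene PSMD10 had 0 to 0.282 CPM (median 0.0754) in SCC6 and 46.2 to 56.8 CPM (median 54) in SCC25 (-9.17 ± 0.29), and ATG4A was lower at -7.31 ± 0.34. The stretch was not uniform: PRPS1 (0.307 to 1.1 CPM (median 0.58) in SCC6), TBC1D8B (4.1 to 7.01 CPM (median 5.24)) and MORC4 (3.38 to 5.67 CPM (median 4.67)) kept counts in every SCC6 library. The next genes tested beyond COL4A5 were called lower too, with smaller differences, at -0.58 ± 0.10 for NXT2, -0.95 ± 0.36 for KCNE5, which was low in both lines, and -0.26 ± 0.11 for ACSL4 (adjusted p = 0.0421). The ACSL4 call was lost without most single libraries and that of KCNE5 in every subset of days. Over the chromosome, 182 of 504 genes tested (36.1%) were lower by at least 2-fold and 34 (6.75%) higher, against 20.3% and 14.5% over all genes.

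On chromosome 21 the lines changed places. From DSCAM (start 41382926) to PDE9A (end 44195619), all 11 coding genes tested over 2.81 Mb were higher in SCC6, and 5 averaged under 0.1 CPM in SCC25, namely DSCAM, BACE2, RIPK4, C2CD2 and ZBTB21. DSCAM had no count in SCC25 and was at least 272-fold higher, C2CD2 had 24.2 to 28.3 CPM (median 26.1) in SCC6 against 0 to 0.0378 CPM (median 0.00962) in SCC25 (10.64 ± 0.25), and BACE2 was at 8.21 ± 0.33. PRDM15 (6.56 ± 0.24), PDE9A (4.93 ± 0.17) and SLC37A1 (2.67 ± 0.12) were higher with counts in both lines, and MX1 and MX2, also in this stretch, kept 0.558 to 1.04 CPM (median 0.713) and 1.16 to 1.54 CPM (median 1.35) in SCC25. Both stretches were chosen after their values were seen, so the counts of members are a description. The cause was not tested.

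**Figure D3:**
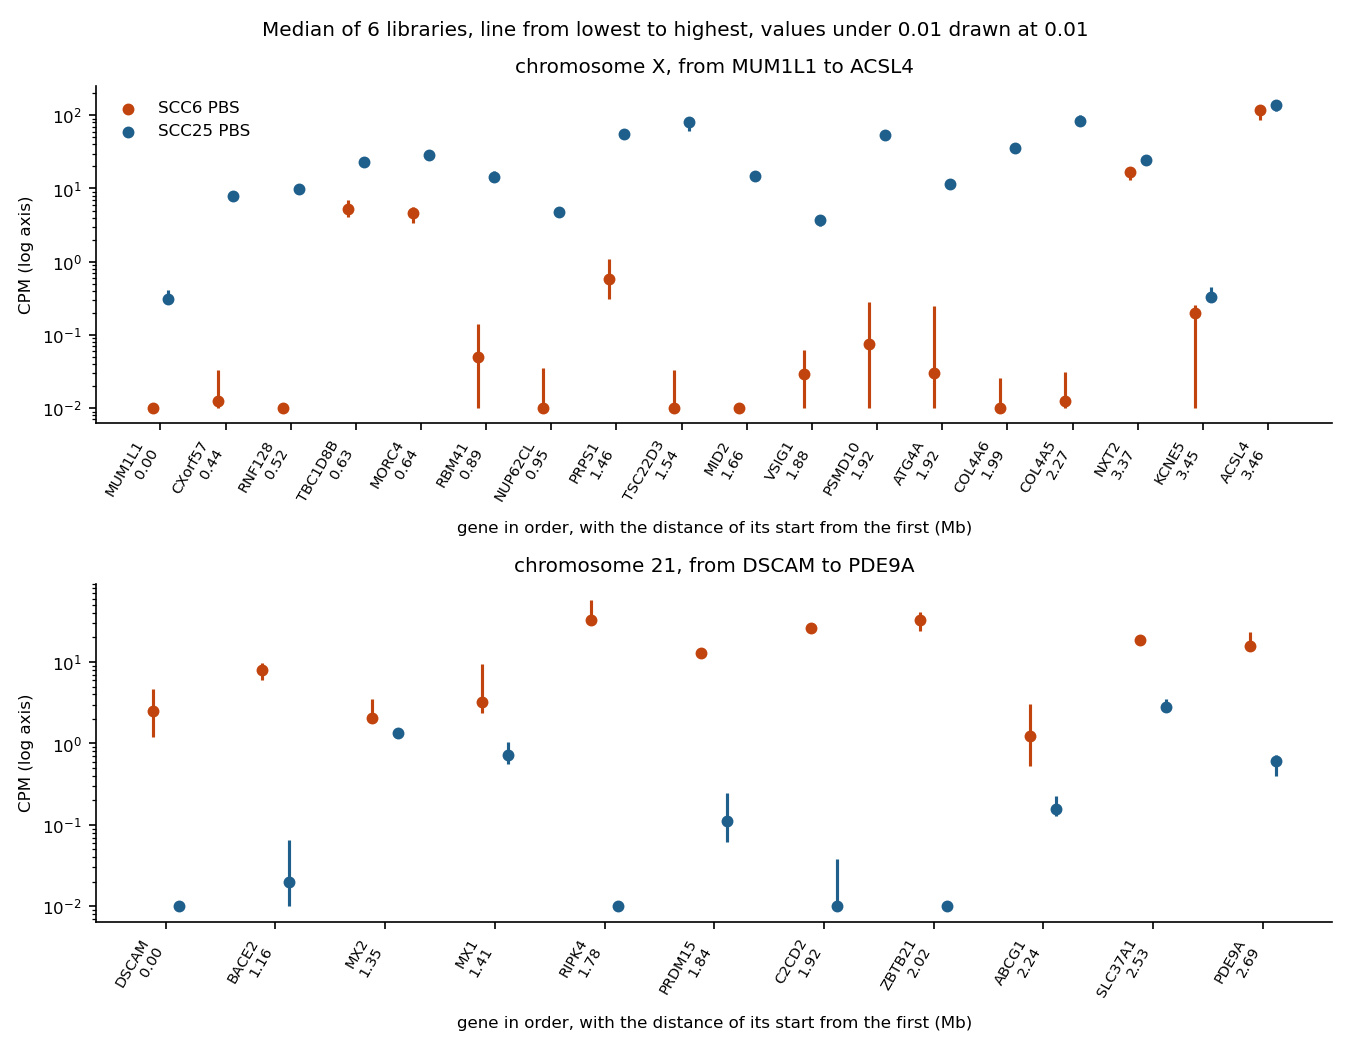
CPM (log axis, values under 0.01 drawn at 0.01) of coding genes in order along the stretches of chromosome X and chromosome 21, with the distance of each gene's start from the first in Mb, points at the median of 6 libraries and lines from the lowest to the highest. On X most SCC6 points lie under 0.1 CPM beside genes that keep counts, and on 21 the SCC25 points of 5 genes do so.

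Genes of 9p21, the region of the cell cycle inhibitors CDKN2A and CDKN2B, and of 11q13, the region of CCND1, were listed because both regions are often altered in HNSCC. CDKN2B (9:22002902-22009304 on GRCh37) had 1 count in SCC6 and 29.1 to 35.3 CPM (median 32.5) in SCC25, a ratio of 6205 (95% counting interval 1114 to 245070.0) for SCC25 over SCC6. CDKN2A had none in SCC6 and only 0.284 to 0.634 CPM (median 0.515) in SCC25, at least 32-fold lower. MTAP, its neighbour, was higher in SCC6 (1.43 ± 0.10), HACD4 was lower (-5.73 ± 0.26) and KLHL9 was not called (0.14 ± 0.07).

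At 11q13, 9 of 10 genes tested were lower in SCC6 and MYEOV higher (2.92 ± 0.15). ANO1 (11:69832013-70035636 on GRCh37), a calcium-activated chloride channel, had 5.56 to 7.14 CPM (median 6.26) in SCC6 and 369 to 477 CPM (median 412) in SCC25 (-6.03 ± 0.10). FADD had 11.1 to 28.3 CPM (median 15.1) against 139.6 to 186 CPM (median 178) (-3.21 ± 0.22), and CTTN, cortactin, had 191 to 335 CPM (median 264) against 1188 to 1377 CPM (median 1301) (-2.25 ± 0.12). TPCN2 was lower at -2.45 ± 0.21, and CCND1 differed least of those named, with 481 to 545 CPM (median 509.6) in SCC6 and 1117 to 1272 CPM (median 1149.8) in SCC25.

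Whether the line difference changed over the days was tested as a difference of slopes, in log2 units per day. Of 18615 genes, 1959 (10.5%) had a slope higher in SCC6 and 3235 (17.4%) a lower one. Without scaling beyond library size the split turned to 3215 higher and 2582 lower. The count fell to 2294 without SCC25 day 5, 3076 without SCC25 day 0 and 3296 without SCC6 day 0, and in days 2 to 5 alone, where each line comes from 1 flow cell, 475 genes were called.

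KRT6B took opposite courses. In SCC6 it read 220.3, 162, 82.7, 47.2, 22.9 and 12.3 CPM from day 0 to day 5, and in SCC25 59.3, 43.5, 57.2, 65.7, 78.6 and 111 CPM, so the line with the higher level changed between day 2 and day 3. The slope difference was -1.06 ± 0.06 per day (adjusted p = 2.32e-06). KRT6A, a near-identical copy that can share its reads, read 726, 615, 345, 215, 77.8 and 31.7 CPM in SCC6 and 2582, 2567, 2950.2, 3113, 3328 and 4201 CPM in SCC25 (-1.05 ± 0.09 per day), and KRT17, the partner of both, differed by -0.56 ± 0.06.

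Matrix genes also had lower slopes in SCC6. MMP1 read 4809, 2198, 1743, 1329.5, 588 and 287 CPM in SCC6 and 107, 58, 49.2, 64.3, 76.5 and 99.7 CPM in SCC25 (-0.77 ± 0.11). The laminin chain LAMB3 read 3707, 3423, 2291, 2239.9, 1756 and 1287 CPM in SCC6 and 1113, 948, 1087, 1145, 1105 and 1327 CPM in SCC25 (-0.36 ± 0.04), the SCC6 level lying below that of SCC25 on day 5 alone. MMP10 was not called (-0.43 ± 0.19, adjusted p = 0.11). VIM read 175, 168, 110.1, 78, 45.8 and 35 CPM in SCC6 and 1079, 1083, 1127, 899.6, 761 and 672 CPM in SCC25 (-0.36 ± 0.05), with lower values at day 5 than at day 0 in both lines.

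The stress gene NDRG1 read 347, 293, 217, 183, 146 and 115 CPM in SCC6 and 678, 625, 714, 759, 884 and 1047 CPM in SCC25 (-0.46 ± 0.03). WNT9A (-0.57 ± 0.04), SPSB1 (-0.48 ± 0.04) and the channel TRPV3 (-0.64 ± 0.05) were the others of the 5 smallest p-values with a lower slope in SCC6. KRT13 went from 2.37 to 6.26 CPM in SCC6 and from 4.63 to 94.7 CPM in SCC25 between day 0 and day 5 (-0.53 ± 0.07).

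In the opposite direction, NRP2, a coreceptor for semaphorins and VEGFC, read 27.9, 34.8, 39.7, 46.4, 60.7 and 71.6 CPM in SCC6 and 76.8, 70.4, 64.7, 58.9, 58.7 and 54.7 CPM in SCC25 (0.37 ± 0.03, adjusted p = 5.47e-06). The glutamate transporter SLC1A3 read 5.45, 5.57, 9.85, 10.6, 16.6 and 29.7 CPM in SCC6 and 46, 49, 46.1, 45.8, 46.7 and 43.9 CPM in SCC25 (0.51 ± 0.05). The docking protein NEDD9 (0.38 ± 0.03), the sodium channel subunit SCNN1A (0.46 ± 0.04) and LTBP1 (0.36 ± 0.03) also had higher slopes in SCC6. IFIT3 went from 2.93 to 11.1 CPM in SCC6 and from 28 to 159 CPM in SCC25 between day 0 and day 5, with a slope difference of -0.11 ± 0.06 (adjusted p = 0.211) that was not called. When days 0 to 2 were set against days 3 to 5 in place of a slope, none of the 16 genes with a called slope difference described here was called by edgeR (adjusted p from 0.069 for NRP2 to 0.195 for KRT13). In days 2 to 5 alone, a subset chosen after seeing the data, the 16 called slope differences described here were called in the same direction, as were those of IFIT3 (-0.35) and MMP10 (-1.13). These libraries are among those in which the 16 were called and chosen, so their agreement is no separate test.

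**Figure D4:**
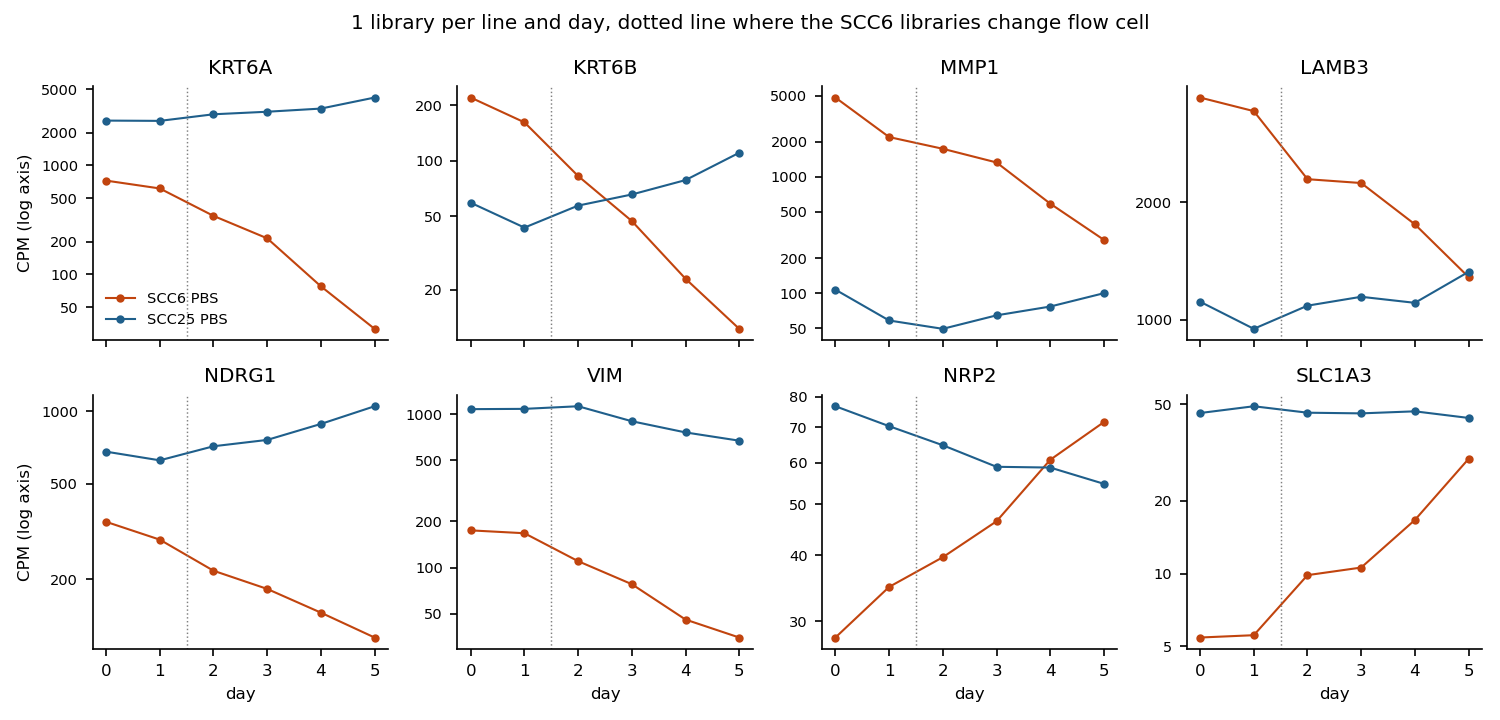
CPM (log axis) by day (x axis) of 8 genes, with 1 library per line and day, and a dotted line where the SCC6 libraries change flow cell. In SCC6 the values of KRT6A, KRT6B, MMP1, LAMB3, NDRG1 and VIM go down from day 0 to day 5, and those of NRP2 and SLC1A3 go up.

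The line difference was also read in libraries that the comparison above did not use, the 5 SCC6 and 5 SCC25 libraries treated with cetuximab at 100 nM. Per the labels SCC6 had no library of day 1 and repeated day 2, while SCC25 had days 1 to 5. The lines again shared no flow cell. Line and flow cell therefore cannot be told apart there either, and the days under the drug were not matched. Of 19282 genes tested there, 6406 (33.2%) were higher and 6694 (34.7%) lower in SCC6. Of the 13232 genes called in PBS and tested in both, 12392 (93.7%) had the same direction and 10530 (79.6%) were also called, while 167 were called in the opposite direction. KRT5 was at -8.99 ± 0.13, KRT8 at 2.35 ± 0.12, TP63 at -2.63 ± 0.13, HLA-B at -4.42 ± 0.23, OAS2 at -6.67 ± 0.46 and FKBP5 at -2.95 ± 0.10 with cetuximab, all called and in the direction seen in PBS. KRT6A lay further apart (-7.29 ± 0.55) and VIM closer (-0.94 ± 0.29), with VIM at 352 ± 156 (SD, n = 5) in SCC6 and 676 ± 138 (SD, n = 5) in SCC25 CPM. EGFR was not called there either (-0.13 ± 0.07, adjusted p = 0.0986).

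Levels in the third line of the series, SCC1, were set beside those of the other two. On a common scaling of all 33 libraries, KRT5 had a median of 2.4, 549 and 5122 CPM in SCC6, SCC1 and SCC25, TP63 37.9, 110.4 and 616 CPM and PKP1 0.879, 25.3 and 314 CPM, so SCC1 lay between the others without overlap. SCC1 resembled SCC6 at TNC, with 22.3, 26 and 796 CPM, at TENM2, with 0.0487, 0.149 and 499.5 CPM, at LAMB2, with 63.3, 71.8 and 0 CPM, and at FAT1, with 462, 715 and 0.076 CPM, each in the same order of lines. SCC1 resembled SCC25 at LAMA1, with 0.544, 131 and 139 CPM, and at COL4A5, with 0.0133, 81.9 and 87.1 CPM. The same held at FAP, with 0.369, 35.2 and 33.2 CPM. At BST2, with 0.0733, 42.6 and 88.4 CPM, and HLA-B, with 11.8, 217 and 340.2 CPM, SCC1 lay between the others. CDKN2A was highest in SCC1, with 0, 11.2 and 0.541 CPM, and ANO1 lowest there, with 6.49, 0.0767 and 432 CPM.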

How the data were processed

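Polyadenylated RNA of 2 HNSCC lines was sequenced by the authors as stranded paired-end libraries and quantified with Salmon 0.8.2 and tximport. The deposited values are estimated counts per gene symbol, not normalised between libraries. The submitters' processing notes list hg19 and GRCh37, and the annotation is not given in the sources used here. No reads were reprocessed.

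Estimated counts were rounded to whole numbers. Genes were filtered with filterByExpr, libraries scaled by TMM, and SCC6 compared with SCC25 by edgeR's quasi-likelihood test (edgeR 4.0.16, limma 3.58.1, R 4.3.3) with Benjamini-Hochberg adjustment over all genes tested, a call being an adjusted p under 0.05. The day term was line by day. Only the cetuximab libraries of these lines entered the cetuximab fit. The line, day and cetuximab fits were tested on simulated data. The simulated libraries were independent, with the same dispersion for all genes and no flow cell shift. They therefore cannot speak to dependence between days or to flow cell. DESeq2 1.42.0, other scalings, no filter, a GC trend, subsets of days, flow cell, a day block and leaving out each library were the alternatives. The flow cell fit had no day term, and within a group the flow cells hold different days, so it mixes flow cell with day. In the cetuximab groups that it also uses, day is time under the drug. Counting intervals and floors of 3 counts over the 6 libraries of a line cover counting error only.

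The genes, lists and stretches were chosen with earlier results of these data known. Named were the 10 largest called differences each way among coding genes with at least 30 CPM on average in the higher line and no overlap. The genes the study names were added. So were up to 4 called members per role of each list whose log2 CPM averaged 3 or more. Some members that did not pass were named, and most are given as counts only. For the day term, the 5 smallest p-values each way among genes whose log2 CPM averaged 3 or more were named. Of 197 genes named in the report, 35 were chosen after their values were seen. Genes of chromosome Y (415 symbols) are not reported here, nor are a few list members whose results were left out by name. Gene positions and GC were taken from the GENCODE annotation of GRCh37, where 34309 of 56470 symbols matched and 1340 more matched by an older symbol. Promoters came from RefSeq on GRCh38.p14 and were matched by symbol alone. KRT6A and KRT6B, KRT81 and KRT86, the MHC class I genes and the UGT1A genes can share reads, and their split depends on the quantification.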

Additional observations from a re-analysis of the deposited data

Results flagged for a closer look

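Among the genes named above, a line's highest or lowest library was checked for a gap to its nearest neighbour that, as a share of the line's range, passed Dixon's 95% critical value for 6 samples, in 380 groups of 6 that were not constant. The check marked 25 of them. Chance marks about 1 in 20 groups of independent, normally spread values, which values along a day course or near 0 need not be. SCC25 day 5 stood apart from the other 5 libraries of its line at 8 genes, namely KRT14 (4083 CPM, next value 3188), RAB25 (5.83 CPM, next value 4.58), BST2 (114 CPM, next value 89.9), HLA-C (654 CPM, next value 538), NLRC5 (42.9 CPM, next value 30.7), PRPS1 (48.6 CPM, next value 54.1), C15orf48 (0.50 CPM, next value 0.262) and HLA-F (42.5 CPM, next value 30.8). SCC25 day 0 stood apart from the other 5 libraries of its line at 5 genes, namely KRT8 (387 CPM, next value 535), EGFR (877 CPM, next value 965), DUSP4 (15.6 CPM, next value 12.7), MMP10 (2.23 CPM, next value 0.616) and TRHDE (0.435 CPM, next value 0.163). SCC6 day 0 stood apart from the other 5 libraries of its line at 5 genes, namely MMP10 (229.9 CPM, next value 67.8), CDKN2B (0.0279 CPM, next value 0), CD68 (31.9 CPM, next value 18.1), PDE9A (23.2 CPM, next value 18.1) and FBN1 (10.7 CPM, next value 5.88). Single cases were KCNE5 in SCC6 day 2 (0 CPM, next value 0.186), SNAI1 in SCC6 day 3 (4.55 CPM, next value 3.27), TWIST2 in SCC6 day 1 (0.0313 CPM, next value 0), COL4A6 in SCC6 day 4 (0.0254 CPM, next value 0), TSC22D3 in SCC6 day 2 (0.0334 CPM, next value 0), KLF9 in SCC6 day 5 (11.9 CPM, next value 7.00) and PSMD10 in SCC6 day 5 (0.282 CPM, next value 0.1). The value at TWIST2, COL4A6, TSC22D3 and CDKN2B in SCC6 is a single count where the other 5 libraries had none.

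The line difference changed with day at 16 of the 18 genes for which the slope is given, by the test of the line-by-day term (edgeR quasi-likelihood test with Benjamini-Hochberg adjustment over 18615 genes). The slope of SCC6 minus that of SCC25, in log2 units per day, was -1.05 for KRT6A, -1.06 for KRT6B, -0.56 for KRT17, -0.53 for KRT13, -0.36 for VIM, -0.36 for LAMB3, -0.77 for MMP1, 0.37 for NRP2, 0.38 for NEDD9, 0.46 for SCNN1A, 0.36 for LTBP1, 0.51 for SLC1A3, -0.46 for NDRG1, -0.57 for WNT9A, -0.48 for SPSB1 and -0.64 for TRPV3. In SCC6 the flow cell changes between day 1 and day 2, and in days 2 to 5 alone, chosen after seeing the data, the 16 were called in the same direction. That subset reuses libraries in which the 16 were called and chosen, so it is no separate test. With days 0 to 2 set against days 3 to 5, none of the 16 was called by edgeR (adjusted p from 0.069 to 0.195).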

How the results depend on the processing

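The count of genes called between lines (13422) ranged from 9133 with flow cell as a covariate in all 33 libraries to 16343 without the low-count filter, where calls of at least 2-fold rose from 6462 to 10036. Leaving out each library gave 13107 to 13950 calls, 6564 to 6959 of at least 2-fold, and 12613 to 13509 with cetuximab. The day term was the most dependent on the setting. Its 5194 calls were 3071 with the GC trend removed, over fewer genes, 1645 in days 1 to 5, 475 in days 2 to 5 (chosen after seeing the data) and 3 for days 0 to 2 against days 3 to 5, where 4230 genes had an unadjusted p under 0.05. Without single libraries they ranged from 2294 (without SCC25 day 5) to 6604. Genes detected in 1 line alone numbered 119 at a minimum of 1 CPM and 19 at a count of 0, against 42. The median log2 fold change of all genes moved by -0.15 without scaling, 0.19 with the GC trend removed, -0.18 without the filter and 0.11 with DESeq2. Where no cause is named, the cause was not tested.

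With day as a replicate block, 13094 genes were called between lines, 6508 of at least 2-fold, and 3681 for the day term. With cetuximab in days 3 to 5 the block gave 13415 calls and its absence 12241. The days did not pair the samples, since the correlation of same-day deviations ran from -0.33 to 0.31 and only days 3 and 4 correlated best with their own day.

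Of 204 called gene values, 153 were called in the same direction under every alternative with a value. Among line differences that changed sign, the flow cell covariate gave -0.75 for KRT6B, -0.19 for MYC, 0.29 for IGF1R, 1.20 for COL18A1, -0.028 for TIMP3, -2.01 for SAMD9, -0.091 for NR3C1, -0.069 for ASNS and -1.93 for MX2. Of these, SAMD9 alone was called with the covariate, lower in SCC6 (adjusted p = 0.00785). Removing the GC trend gave 0.00047 for TFAP2A, 0.13 for EGFR, 0.064 for IGF1R, 0.024 for TGFBR3, 0.30 for VEGFA and 0.33 for TWIST1. Days 0 and 1 gave 0.57 for KRT17 (adjusted p = 0.0215), 0.52 for COL18A1 (adjusted p = 0.00578) and 0.17 for VEGFA (adjusted p = 0.212). KRT17 and COL18A1 were thus called higher in SCC6 on those days. Days 2 to 5 gave -0.93 for KRT6B and 0.047 for TGFBR3. KRT6B was at -0.12 in days 1 to 5 and -0.10 with the day block. Without single libraries KRT6B ranged from -0.079 (without SCC6 day 0) to 0.61, TGFBR3 from -0.10 to 0.0063 (without SCC25 day 3, and 0.0042 without SCC6 day 4) and TWIST1 from -0.26 to 0.0012 (without SCC6 day 1). KLHL9 was at -0.011 without scaling. The flow cell covariate also moved list counts, namely squamous transcription factors to 9 higher and 4 lower, cornification to 5 and 5, cytokines and chemokines to 4 and 9, the glucocorticoid list to 4 and 8, the ATF4 list to 4 and 3 and NRF2 targets to 2 and 9. For genes near 0 in a line, such as CDH11 and SPRR3, that fit gave no usable estimate. Its other values cannot tell flow cell from day, since the libraries that join the flow cells differ in day. Some of these libraries were treated with cetuximab and so differ in time under the drug.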

Other observations

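Other genes detected in SCC25 and near absent from SCC6 were named after their values were seen. TNFRSF8, the receptor CD30, had 24.5 to 37.8 CPM (median 30.1) in SCC25 and 3 counts in all of SCC6. MT1E, a metallothionein whose relatives can share its reads, had 27.0 to 33.1 CPM (median 28.8) in SCC25 against 2 counts in SCC6. AIM2, a sensor of cytosolic DNA that interferon induces, had 12.9 to 31.2 CPM (median 16.4) against 1 count. Both endothelin receptors were among them. EDNRB had 6.92 to 9.29 CPM (median 8.35) in SCC25 and no count in SCC6, at least 533-fold lower, and EDNRA had 6.54 to 12.2 CPM (median 8.65) against 2 counts. BCHE, butyrylcholinesterase, had 15.6 to 20.1 CPM (median 17.7) and no count in SCC6, at least 1141-fold lower. CERS3, a ceramide synthase of the epidermal barrier, had 9.53 to 17.7 CPM (median 11.5) against 3 counts.

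By chromosome, calls of at least 2-fold were not spread evenly over the 15587 genes tested with a position. SCC6 was higher at 189 of 745 genes (25.4%) on chromosome 7, 101 of 420 (24.1%) on chromosome 20 and 256 of 1101 (23.3%) on chromosome 19. Over all genes tested this share was 14.5%. It was lower at 182 of 504 (36.1%) on chromosome X, 250 of 863 (29.0%) on chromosome 11 and 146 of 513 (28.5%) on chromosome 14. Over all genes tested this share was 20.3%. These shares are a description and were given no test. The balance of directions depended on the GC trend, and the shares by chromosome were not redone without that trend.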
